A study of Mus musculus with 3 samples.

Results

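The expression of 10 genes, 8 myeloid C-type lectin receptors and 2 signalling adaptors, was followed in mouse retina after injection of caveolin-1 reagents into the vitreous. Members were taken as the probe sets annotated to exactly 1 of the symbols *Clec4a1*, *Clec4a2*, *Clec4a3*, *Clec4d*, *Clec4e*, *Clec4n*, *Clec5a*, *Clec7a*, *Fcer1g* and *Tyrobp*, with the highest-mean probe set kept per gene, and all 10 were found among 22180 measured genes. Each member had 1 probe set. The genes were listed with their values on these arrays already known, so their differences are given as a description with no test.

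The study had 3 groups with 1 array each, and each array held RNA of 5 to 6 pooled retinae of C57 mice, with no further genotype, sex or age given in the labels. The AP control group received AP, which the labels do not spell out, and was taken at 2 hr. The cavtratin group was also taken at 2 hr. Cavtratin is a cell-permeable peptide with the scaffolding domain of caveolin-1. The Cav1-shRNA group received an shRNA that by its name is directed at *Cav1* and was taken at 2 days, so agent and time differ together wherever this array is compared, and no control at 2 days or control hairpin was analysed here. The targeted gene *Cav1* was at 8.26 on every one of the 3 arrays, an exact tie of a kind that 43.2% of genes at the floor showed, so the knockdown could not be checked on these values. There were no replicates, so a difference below is one between 2 arrays, not between conditions.

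C-type lectin receptors of myeloid cells recognise sugars and glycolipids of microbes and material from dying cells. Most activating members have a short tail without a signalling motif of their own and depend on an adaptor, the Fc receptor gamma chain encoded by *Fcer1g* or DAP12 encoded by *Tyrobp*, whose immunoreceptor tyrosine-based activation motif recruits the kinase Syk. Syk then acts through the adaptor Card9 and its partners Bcl10 and Malt1 to switch on NF-kB and cytokine genes. In the retina such receptors and adaptors are known from microglia and from infiltrating monocytes, macrophages and neutrophils.

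Values are the deposited log2 expression values. A floor of 6.50, the middle of the mean values of all probe sets that carry a single symbol, served to mark low signals, and a value below it can understate a difference. Genes were called 2-fold apart, higher or lower, from a log2 difference of 1 upwards, provided that the brighter array of the pair reached the floor. Levels of different genes were not set against each other, since each rests on other probes, except that some marker lists were also summed. In bulk tissue, more cells of a type and more RNA per cell cannot be told apart. The tissue label was checked with 12 photoreceptor markers, and all 12 lay above the floor in all 3 arrays.

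In 9 of the 10 members AP control gave the lowest value, the Cav1-shRNA value lay between and the cavtratin value was the highest. The exception was *Clec4a2*, with 3 equal values. Over the 11510 genes that reached the floor in any array, 5.51% had this order. A gene with equal values cannot show it, and 75.3% of these genes had at least 1 equal pair. The 9 members include *Clec4a1*, below the floor in every array, and *Clec7a*, with Cav1-shRNA only 0.012 above AP control. In cavtratin against AP control 7 members were at least 2-fold higher and 0 lower, where 1.36% of 11477 genes at the floor were higher and 0.0958% lower. In Cav1-shRNA against AP control 4 members were higher and 0 lower, where 0.341% of 11433 genes were higher and 0.122% lower. In Cav1-shRNA against cavtratin 3 members were lower and 0 higher, where 0.785% of 11472 genes were lower and 0.0349% higher. Of the 10 members, 8, 7 and 8 had the brighter array at the floor in these 3 comparisons. Since the members were chosen on these values, nothing is read from how the counts compare with these backgrounds.

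**Figure D1:**
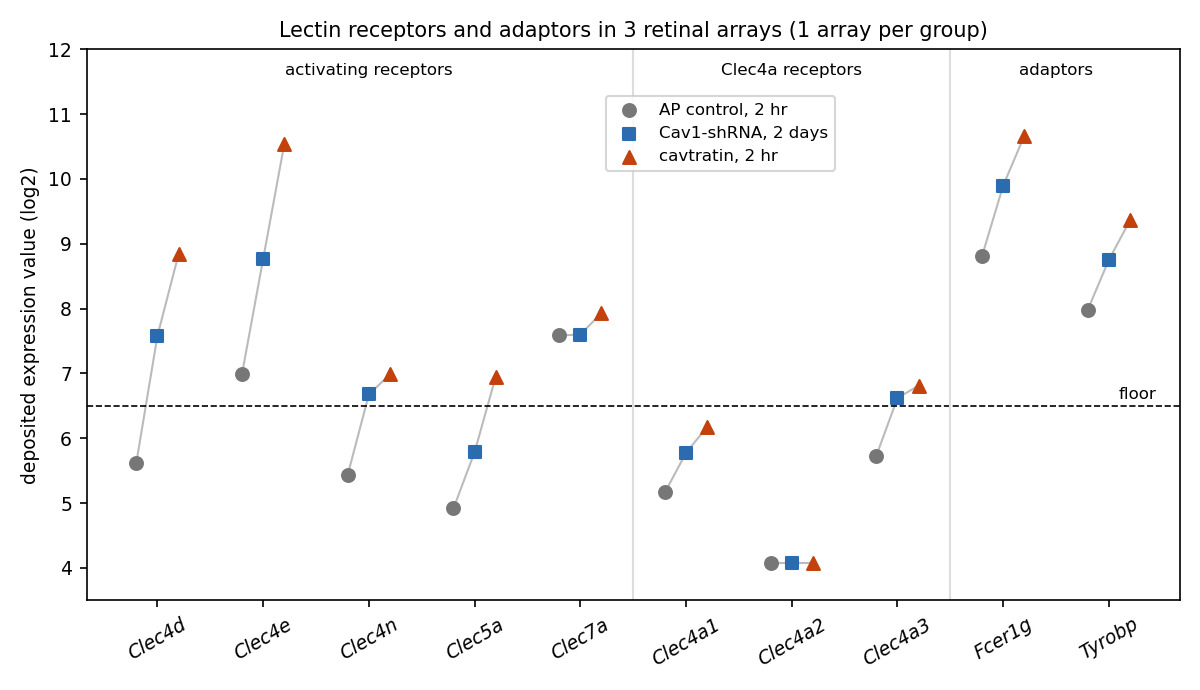
Deposited expression value (log2, vertical axis) of each of the 10 genes in the AP control (grey circles), Cav1-shRNA (blue squares) and cavtratin (orange triangles) arrays, 1 array per group, with a dashed line at the floor of 6.50. The 3 points climb from left to right in every gene but *Clec4a2*, whose points are level at 4.07, and heights of different genes are not comparable.

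*Clec4e* and *Clec4d* are described first because they had the largest differences among the members. *Clec4e* encodes Mincle, a receptor for mycobacterial glycolipids and for a nuclear protein released by dying cells, and *Clec4d* encodes its partner MCL, with which it forms a complex on the Fc receptor gamma chain. The genes are direct neighbours on chromosome 6 and lie on opposite strands. The 250 bases before the start site of each are shown because this pair had the largest differences. They are from RefSeq (GRCm38.p6), written 5′ to 3′ on the gene's own strand, at chr6:123261857-123262106 on the plus strand for *Clec4d* and chr6:123289872-123290121 on the minus strand for *Clec4e*. Capitals mark matches to the motifs described in the next paragraph.
Clec4d: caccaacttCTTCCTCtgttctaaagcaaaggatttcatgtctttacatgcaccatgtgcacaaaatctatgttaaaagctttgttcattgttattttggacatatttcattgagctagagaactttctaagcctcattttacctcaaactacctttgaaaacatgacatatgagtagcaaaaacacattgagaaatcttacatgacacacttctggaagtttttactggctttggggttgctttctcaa
Clec4e: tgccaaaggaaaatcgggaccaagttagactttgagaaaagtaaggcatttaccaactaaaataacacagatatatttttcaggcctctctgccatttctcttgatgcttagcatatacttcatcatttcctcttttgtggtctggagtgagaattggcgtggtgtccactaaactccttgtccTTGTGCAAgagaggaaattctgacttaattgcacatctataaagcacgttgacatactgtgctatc

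The 8 members with a promoter in the RefSeq table were searched on both strands, over 10 annotated start sites, some of which overlap, and *Clec4n* and *Tyrobp* were not among them. The motif GAGGAAG, bound by ETS factors such as the myeloid factor PU.1, was found in 3 of the 8, *Clec4d*, *Clec5a* and *Clec4a1*, and in 10.6% of all 32851 promoter windows of 250 bases. In *Clec4d* its far end lay 241 bases before the start site, and in *Clec5a* there were matches starting 82 and 56 bases before it. The C/EBP motif TTNNGCAA was found in *Clec4e* alone of the 8, from 66 to 59 bases before the start, and in 9.56% of all windows. The AP-1 motif TGANTCA (6.75% of all windows) and an NF-kB motif of 10 letters with 2 free positions (1.41%) were found in 0 of the 8. The motifs do not overlap in these windows. A match says only that the letters are there.

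*Clec4e* (probe set 17470627) was at 6.998 with AP, 8.77 in the array labelled Cav1-shRNA and 10.54 with cavtratin. The 3 arrays are thus spaced almost evenly, all of them above the floor. The cavtratin value was 3.54 above AP control, an 11.7-fold difference, and ranked 1st among the 11227 genes with both of these arrays at the floor. That base leaves out genes with AP control below the floor, and larger differences were among them, *Cxcl3* at 4.93 and *S100a8* at 3.74. The Cav1-shRNA value was 1.77 above AP control, or 3.42-fold, and 1.77 below cavtratin. Among genes with both compared arrays at the floor, which leaves out *Clec4d* against AP control, it ranked 2nd in the former comparison and 15th from the lowest of 11296 in the latter. *Clec4d* (probe set 17462796) was at 5.63 with AP, 7.58 in the array labelled Cav1-shRNA and 8.84 with cavtratin. Here AP control was below the floor, so the differences of 3.22 for cavtratin and 1.96 for Cav1-shRNA can be too small. Against cavtratin, where both arrays were above the floor, *Clec4d* was 1.26 lower in Cav1-shRNA, a 2.39-fold difference.

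The other activating receptors spread over a wide range of differences. *Clec5a* (probe set 17466228) encodes MDL-1, a receptor that signals through DAP12, and was at 4.92 with AP, 5.79 in the array labelled Cav1-shRNA and 6.95 with cavtratin. Only the cavtratin value reached the floor, 2.03 above AP control, and the Cav1-shRNA value was 1.16 below cavtratin. *Clec4n* (probe set 17462788) encodes a receptor for fungal mannans that pairs with the Fc receptor gamma chain, and was at 5.44, 6.68 and 6.99 with AP, Cav1-shRNA and cavtratin. In this gene the Cav1-shRNA array lay close to cavtratin, 0.31 below it, and 1.24 above AP control, the reverse of the spacing in *Clec5a*. AP control was below the floor in *Clec4n*, so its differences from AP control can be too small. *Clec7a* (probe set 17471541) encodes the beta-glucan receptor, which carries an activating motif in its own tail and needs neither adaptor, and was at 7.59, 7.60 and 7.93. Its differences from AP control were 0.35 for cavtratin and 0.012 for Cav1-shRNA, and in neither comparison was it counted as 2-fold apart. All 3 *Clec7a* values were above the floor.

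The Clec4a receptors had smaller differences than *Clec4d* and *Clec4e* beside them on the chromosome. *Clec4a3* (probe set 17462738) was at 5.73 with AP, 6.62 in the array labelled Cav1-shRNA and 6.81 with cavtratin, 0.89 and 1.08 above AP control. Both treated arrays were above the floor and 0.19 apart. *Clec4a1* (probe set 17462729) was at 5.17, 5.78 and 6.18 in the same order, and since all 3 lay below the floor its cavtratin difference of 1.01 was not counted. *Clec4a2* (probe set 17462764) encodes DCIR, an inhibitory receptor that recruits phosphatases through its tail, and was at 4.07 in all 3 arrays, also below the floor. Equal values to within 1e-09 were common in this table: 43.2% of the 11510 genes were equal in all 3 arrays and 75.3% had at least 1 equal pair, while among the members *Clec4a2* alone had a tie. Clec4a genes are close copies of each other, and how far their probes respond to one another's transcripts was not tested.

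Both adaptors were above the floor in all 3 arrays. *Fcer1g* (probe set 17229658), on chromosome 1, was at 8.81 with AP, 9.90 in the array labelled Cav1-shRNA and 10.67 with cavtratin. The cavtratin array was 1.85 and the Cav1-shRNA array 1.09 above AP control, or 3.61-fold and 2.12-fold. *Tyrobp* (probe set 17476364), on chromosome 7, was at 7.98, 8.75 and 9.36. Its differences from AP control were 1.38 and 0.77, so it was at least 2-fold higher in cavtratin but not in Cav1-shRNA. Set against cavtratin, Cav1-shRNA was 0.77 lower in *Fcer1g* and 0.61 lower in *Tyrobp*, both short of 2-fold.

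**Figure D2:**
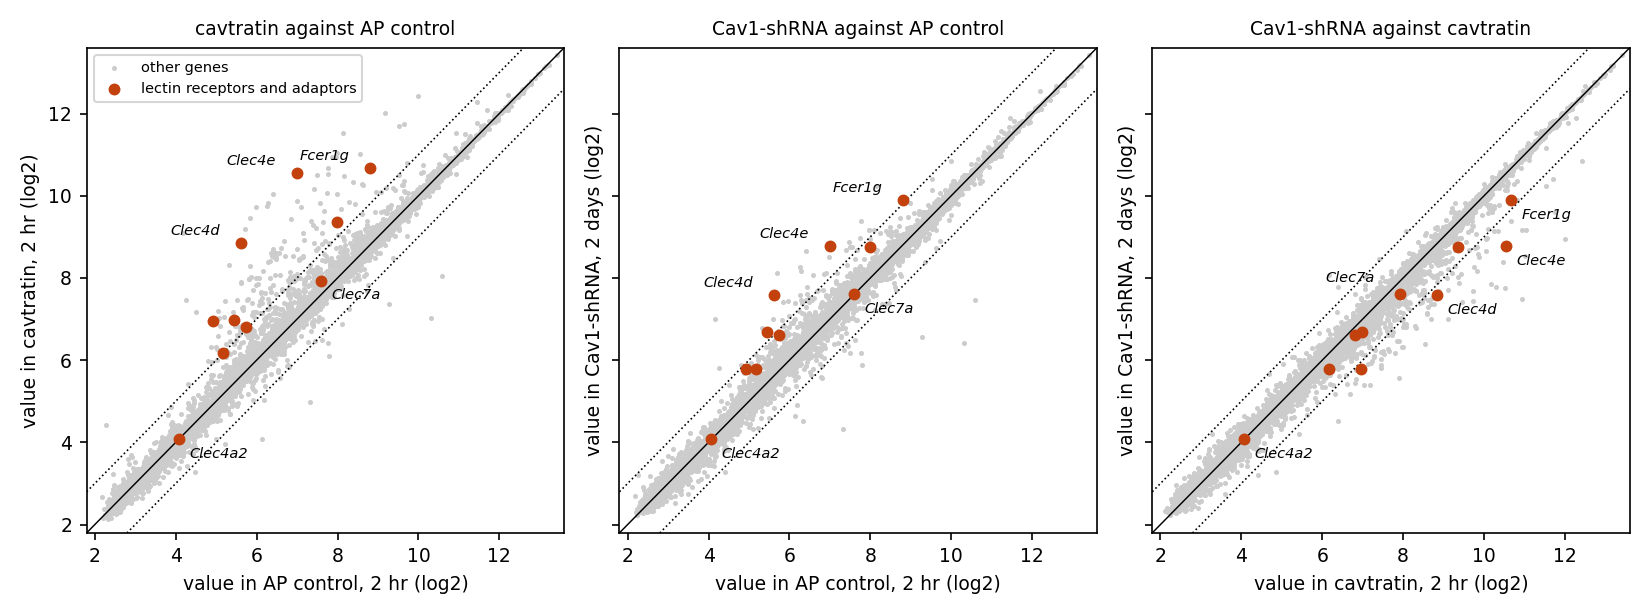
Value of every gene in 1 array (vertical axis, log2) against another (horizontal axis, log2) for the 3 comparisons, with grey points for other genes, orange points for the 10 lectin receptors and adaptors, a solid line at equal values and dotted lines at a log2 difference of 1. *Clec4e* and *Clec4d* lie far above the line against AP control, at 3.54 and 3.22 for cavtratin, while *Clec4a2* lies on it in all 3 panels.

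Over all 10 members the median difference of cavtratin from AP control was 1.46, with a range from 0 to 3.54, and that of Cav1-shRNA was 0.88, with a range from 0 to 1.96. The median difference of Cav1-shRNA from cavtratin was −0.51, with a range from −1.77 to 0. The median over all genes was 0 in each comparison. As a measure of spread, the differences between arrays were compared across probe sets of the same gene, in 271 genes with several probe sets above the floor. Around the mean of each gene, their SD was 0.11 for cavtratin against AP control, 0.083 for Cav1-shRNA against AP control and 0.099 for Cav1-shRNA against cavtratin. The Cav1-shRNA difference of *Clec7a* from AP control, 0.012, lay inside that spread, and the equal values of *Clec4a2* aside, every other difference of a member was larger than it. This spread holds no variation between animals or pools, and equal values, which were common in this table, can lower it. It was taken above the floor, so it does not describe members below the floor, such as *Clec4a1*.

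Of the 10 members, 6 belong to an unbroken row of 9 Clec4 genes on chromosome 6, in the order *Clec4a1*, *Clec4a3*, *Clec4a4*, *Clec4b1*, *Clec4a2*, *Clec4b2*, *Clec4n*, *Clec4d* and *Clec4e* in the RefSeq annotation. The 3 genes at the *Clec4e* end, *Clec4n*, *Clec4d* and *Clec4e*, had the largest differences of the row in both comparisons with AP control. *Clec4a4*, *Clec4b1* and *Clec4b2*, which are not members, lay below the floor in all 3 arrays and differed from AP control in cavtratin by 0.015, 0.25 and 0. Beyond *Clec4a1* come *Necap1*, an endocytic coat protein gene, at −0.095 in cavtratin, and *C3ar1*, the C3a receptor, at 0.54 in cavtratin and 0.73 in Cav1-shRNA. Beyond *Clec4e* lie the vomeronasal receptor genes *Vmn2r19* and *Vmn2r20*, both below the floor in all 3 arrays.

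**Figure D3:**
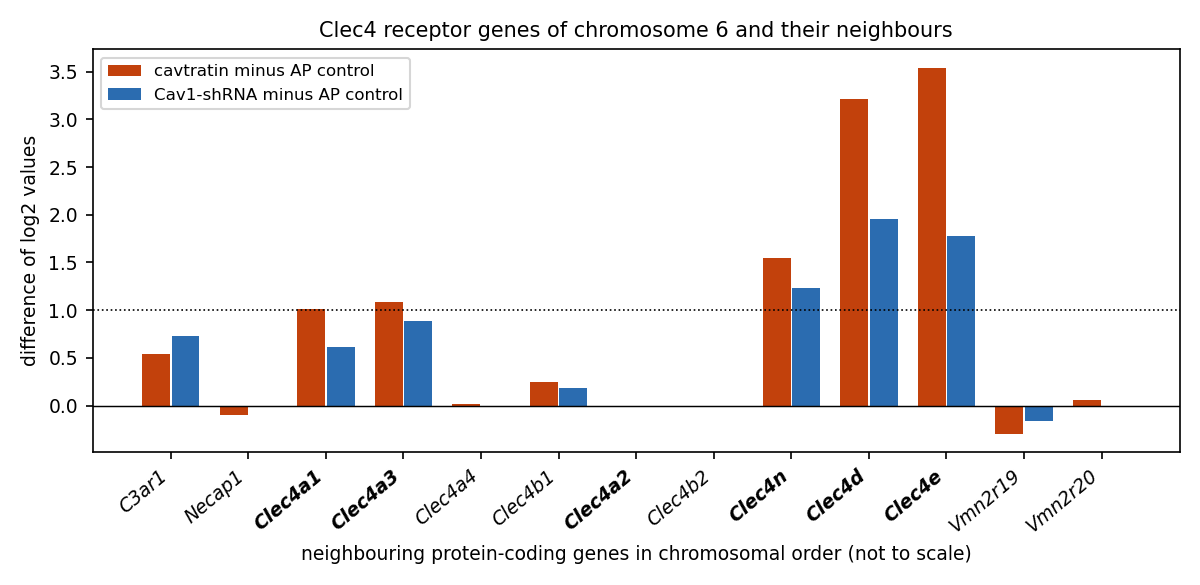
Difference of log2 values from AP control (vertical axis) in cavtratin (orange) and Cav1-shRNA (blue) for the Clec4 genes of chromosome 6 and 2 neighbours on each side, in chromosomal order and not to scale, with members in bold and a dotted line at 1. The tallest bars are those of *Clec4d* and *Clec4e* at one end of the row, while *Clec4a2* and *Clec4b2* have bars of 0.

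The pathway around the receptors was described with lists chosen with earlier results of these data known, and compared with the background of all genes, where the median difference was 0. Of genes at the floor, 1.36% were called higher and 0.0958% lower in cavtratin against AP control. For Cav1-shRNA these shares were 0.341% and 0.122% against AP control, and 0.0349% and 0.785% against cavtratin. The array order of the lectin receptors was seen in 5.51% of genes at the floor in any array. List counts are out of all measured genes, also those below the floor. Nothing is read from how they compare with these shares. Other receptors that pair with *Fcer1g*, *Tyrobp* or the related adaptor gene *Hcst*, with Fc receptors and common beta chains, had 6 of 23 measured genes at least 2-fold higher in cavtratin than in AP control, 0 lower, and a median of 0.29. *Trem1*, an amplifying receptor of neutrophils and monocytes that uses DAP12, was at 6.37 with AP, 7.13 in the array labelled Cav1-shRNA and 8.60 with cavtratin. *Trem3*, another DAP12-coupled receptor, was at 5.67, 6.25 and 7.29, and *Csf2rb2*, a beta chain for the interleukin-3 receptor, was at 6.47, 7.41 and 8.47. *Fcgr2b*, the inhibitory Fc receptor, was at 7.47, 8.07 and 8.68. These 4, named for their size in cavtratin, had the array order of the lectin receptors, as 12 of the 23 did. Of these 4 only *Fcgr2b* had AP control above the floor, and *Trem3* was above it in cavtratin alone. *Trem2*, a DAP12-coupled receptor of microglia and macrophages singled out after its values were seen, was highest in Cav1-shRNA, at 6.95, 7.51 and 6.95. In Cav1-shRNA 0 of the 23 were at least 2-fold apart from AP control, with a median of 0.23, and 3 were lower than in cavtratin, *Trem1* by 1.47, *Csf2rb2* by 1.05 and *Trem3* by 1.05 on the log2 scale.

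Of the kinases, adaptors and effectors that act downstream of the activation motif, 4 of 20 measured genes were at least 2-fold higher in cavtratin than in AP control and 0 lower, with a median of 0.024. *Syk*, the kinase that docks on the motif, was at 5.42 with AP, 6.32 in the array labelled Cav1-shRNA and 7.18 with cavtratin, a difference of 1.76 for cavtratin with 2 of the 3 values below the floor. *Vav1*, a guanine nucleotide exchange factor of blood cells, was at 6.10, 6.98 and 7.63, and *Lcp2*, which encodes the scaffold SLP-76, at 7.79, 7.99 and 8.84. *Fgr*, a Src family kinase of myeloid cells, was at 5.56, 6.23 and 6.62. The array order of the receptors was seen in these 4 and in 8 of the 20 in all. *Vav1* and *Fgr* also had AP control below the floor, and *Fgr* was above it in cavtratin alone. *Card9* was at 5.90 and *Bcl10* at 8.55 in all 3 arrays, and *Malt1* was at 7.93, 7.94 and 8.27, genes singled out after their values were seen. In the comparisons of Cav1-shRNA with AP control and with cavtratin, 0 of the 20 genes were at least 2-fold apart.

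Phosphatases recruited by inhibitory receptors, together with genes that check the pathway, had a median of 0 in all 3 comparisons over 14 genes. Of these genes, 3 were called higher in cavtratin than in AP control. *Sla*, an adaptor that dampens receptor signalling, was at 6.05 with AP, 6.91 in the array labelled Cav1-shRNA and 7.35 with cavtratin. *Pirb*, an inhibitory immunoglobulin-like receptor, was at 5.96, 6.61 and 7.18, and *Inpp5d*, which encodes the lipid phosphatase SHIP1, at 5.93, 6.68 and 7.06. AP control was below the floor in these 3 genes. In the other comparisons 0 of the 14 were at least 2-fold apart.

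Genes known as outputs of Syk and Card9 signalling in myeloid cells divided in direction. In cavtratin 11 of 23 were at least 2-fold higher than in AP control and 2 lower, with a median of 0.67. *Cxcl3*, a neutrophil-attracting chemokine, was at 4.17 in AP control and 9.10 in cavtratin, *Il1rn*, the interleukin-1 receptor antagonist, at 6.85 and 9.43, *Il1a*, an interleukin-1 cytokine, at 8.56 and 11.01, and *Ccl3*, a chemokine for monocytes, at 9.98 and 12.41. *Ccl2* and *Il6* went the other way, from 10.58 to 8.04 and from 7.31 to 4.98. In Cav1-shRNA 2 of the 23 were at least 2-fold higher than in AP control, *Cxcl3* at 7.01 and *Il1rn* at 8.10, and 3 were lower, *Ccl2* at 7.46, *Il6* at 4.34 and *Cxcl1* at 5.60, with a median of 0. Against cavtratin 11 of the 23 were lower in Cav1-shRNA and 0 higher, with a median of −0.65, led by *Ptgs2*, the inducible prostaglandin synthase, at −2.50. In *Il1a* the Cav1-shRNA value of 8.53 was next to the 8.56 of AP control, and in *Ptgs2* the value of 7.79 was below 8.60. The array order of the lectin receptors was seen in 9 of the 23, but not in *Il1a* or *Ptgs2*. In 9 of the 10 lectin pathway members Cav1-shRNA lay between the other arrays. *Clec7a*, among these 9, was also next to AP control, 0.012 above it.

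Of 30 other C-type lectin genes measured, 7 reached the floor in cavtratin or AP control, and 2 were at least 2-fold higher in cavtratin than in AP control, 0 lower, with a median over the 30, mostly low signals, of 0 and 16 exactly equal. *Olr1*, a receptor for oxidised lipoprotein and the neighbour of *Clec7a*, was at 5.81 with AP, 6.32 in the array labelled Cav1-shRNA and 7.98 with cavtratin, and *Thbd*, which encodes thrombomodulin, at 5.78, 6.14 and 6.87. Both were above the floor in cavtratin alone. *Clec12a*, an inhibitory myeloid lectin singled out after its values were seen, was highest in Cav1-shRNA, at 5.57, 6.17 and 5.59 with AP, Cav1-shRNA and cavtratin, all below the floor. In Cav1-shRNA 0 of the 30 were at least 2-fold apart from AP control, and *Olr1* was 1.65 below cavtratin. Myeloid transcription factors had 0 of 12 measured genes at least 2-fold apart in any comparison, with medians of 0.096, 0.020 and −0.098 in cavtratin against AP control, Cav1-shRNA against AP control and Cav1-shRNA against cavtratin.

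**Figure D4:**
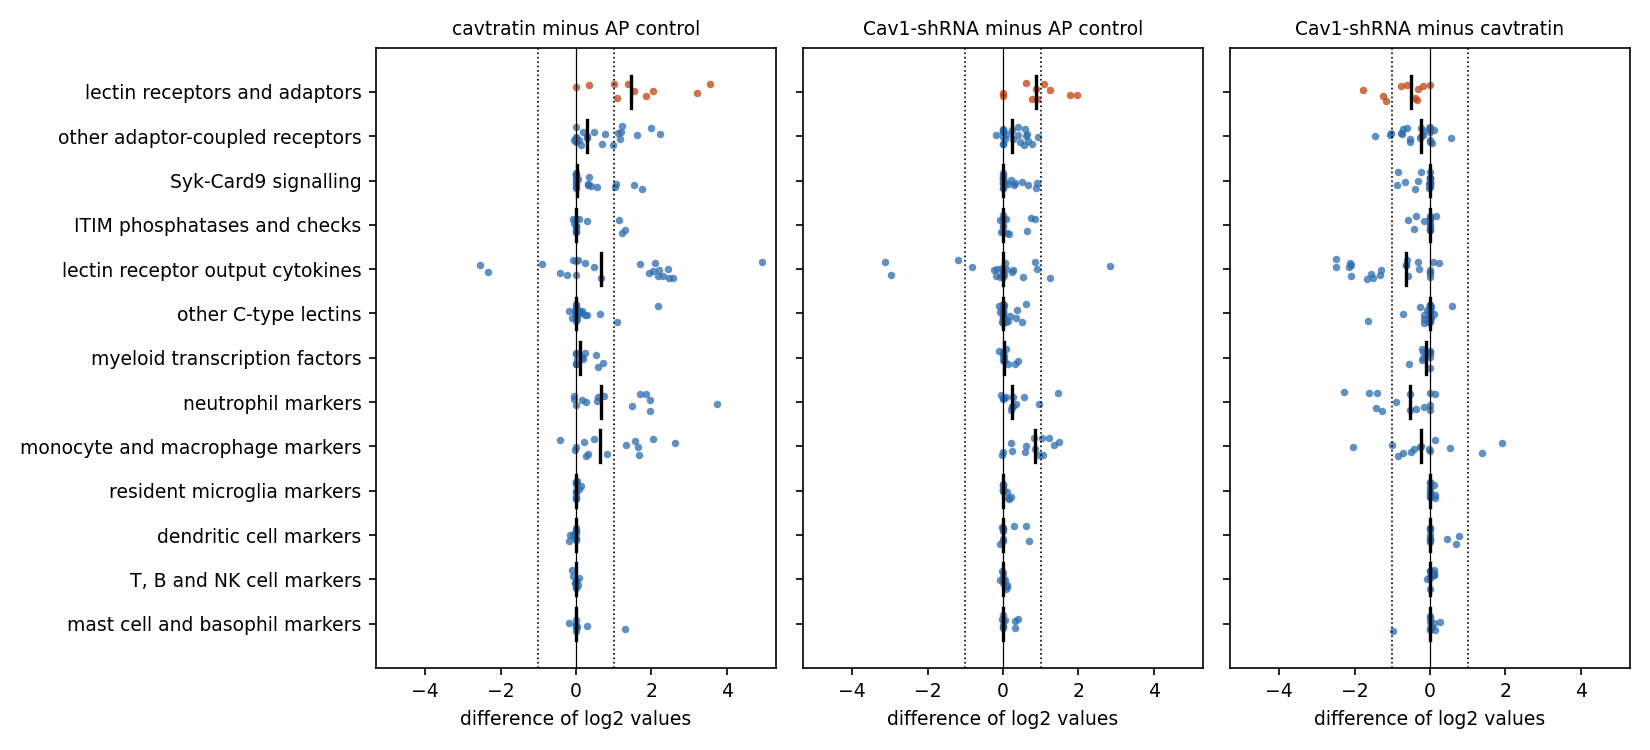
Difference of log2 values (horizontal axis) of each gene in the lectin group (orange) and in 12 other lists (blue) for the 3 comparisons, with a black bar at the median of each list and dotted lines at −1 and 1; vertical scatter within a list has no meaning. The lectin group has medians of 1.46, 0.88 and −0.51 from left to right, and the resident microglia list has a median of 0 in all 3 panels.

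Some myeloid cell markers had the array order of the lectin receptors, 9 of 14 neutrophil markers and 7 of 14 monocyte and macrophage markers. Where such cells came from was not tested. Of the 14 neutrophil markers 6 were at least 2-fold higher in cavtratin than in AP control, 0 lower, with a median of 0.67, and the summed linear signal of the list was 2694 with AP, 3314 in the array labelled Cav1-shRNA and 5479 with cavtratin. Such a sum is weighted towards the highest values of its list. Here these were of *Lcn2*, at 10.9, 11.2 and 11.5, which was not 2-fold apart in any comparison. The 14 monocyte and macrophage markers also had 6 at least 2-fold higher, with a median of 0.65, and their summed signal was 1856, 3403 and 4207. *S100a8*, a calcium-binding protein of neutrophils, was at 5.98, 7.44 and 9.72, and *Cd14*, a lipopolysaccharide co-receptor, at 7.09, 7.67 and 9.73. In Cav1-shRNA against AP control 5 of the 14 monocyte and macrophage markers and 1 of the 14 neutrophil markers were at least 2-fold higher. In Cav1-shRNA against cavtratin 2 of the 14 monocyte and macrophage markers were higher and 1 lower, and 5 of the 14 neutrophil markers were lower. *Ly6c2*, a marker of inflammatory monocytes, was at 6.59 with AP, 8.08 in the array labelled Cav1-shRNA and 6.16 with cavtratin, and *Ms4a7*, a macrophage marker, at 6.43, 7.79 and 6.40, so both were highest in Cav1-shRNA, as 4 of the 14 monocyte and macrophage markers and 0 of the 10 lectin pathway members were. In all, 6 of the 14 neutrophil and 2 of the 14 monocyte and macrophage markers stayed below the floor in every array, on a scale that has no true 0. *Fcgr1*, an Fc receptor gene, stands in both the monocyte list and the receptor list above. The part of these cells in the values of the lectin receptors was not tested.

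Resident microglia markers had 0 of 11 measured genes at least 2-fold apart in any comparison. Their median was 0 in all 3, their largest difference was 0.21, and their summed signal was 1462, 1550 and 1520 with AP, Cav1-shRNA and cavtratin, with 6 of the 11 below the floor throughout. *Sparc*, at 9.26, 9.38 and 9.38, had the highest values of this list and so weighs most in its sum. Dendritic cell markers had 0 of 11 and lymphocyte markers 0 of 10 genes 2-fold apart, and all 10 of the latter lay below the floor in every array. Mast cell and basophil markers, listed because their Fc receptor also uses the gamma chain, had 1 of 10 at least 2-fold higher in cavtratin, the histidine decarboxylase gene *Hdc*, with 8 of the 10 below the floor. Some lens markers also stood higher in the cavtratin array, with 6 of 13 at least 2-fold higher and 0 lower. The summed signal of this list was 2774, 2730 and 10723. All 6 were crystallin genes, while *Mip*, above the floor in every array, was at 6.80, 6.76 and 6.74. The other listed genes that are not crystallins, *Bfsp1*, *Bfsp2* and *Lim2*, lay below the floor in every array. The part of lens markers in the comparison of cavtratin with AP control was not tested.

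Genes with the pattern most like that of the lectin group were sought among 11502 genes at the floor in any array, by the Euclidean distance over the 3 arrays, each gene centred on its own mean, to the median pattern of the 10 members. The nearest was *Eif4ebp1*, a repressor of cap-dependent translation, at 7.43 with AP, 8.33 in the array labelled Cav1-shRNA and 8.85 with cavtratin and a distance of 0.078. It was followed by *Lrrc25*, a leucine-rich repeat protein gene, at 0.085, *Vav1* at 0.089, the galectin gene *Lgals3* at 0.11, the interleukin-4 receptor gene *Il4ra* at 0.11, *Ncf4*, a subunit of the phagocyte NADPH oxidase, at 0.12, *Sla* at 0.14 and the lysosomal macrophage marker *Cd68* at 0.15. Among the members themselves *Tyrobp* was nearest to the median pattern, at 0.11, and *Clec4e* farthest, at 1.48. With 3 arrays, a short distance says no more than that 3 values are spaced alike.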

How the data were processed

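The authors deposited 1 table of 41345 probe sets, whose values are read here as log2 expression, an inference from their range. Per the labels' protocols, biotin-labelled cDNA was hybridised to Affymetrix arrays; no source used here states the build, summarisation or normalization. GEO's platform annotation, which can be old, gave 1 symbol to 23521 probe sets, several to 1814 and none to 16010. Differences between deposited values were computed with Python 3.11.15 and pandas 2.3.3, and no test was run because each group had 1 array. The number of arrays limits the precision. The floor rule keeps genes high in 1 array alone. The members and lists were chosen with earlier results of these data known. Named were all members, up to 4 genes of each list that were at least 2-fold apart per comparison and direction, and the 8 genes most like the members; exceptions are marked where they occur. Counting was tested on simulated data. Planned protein motifs were not used here. Alternatives were centring, quantile normalization, a loess trend with a span of 0.3, probe set means, 2 other floors and 2 other fold thresholds.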

Additional observations from a re-analysis of the deposited data

How the results depend on the processing

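Scaling by centring, quantile normalization or a loess trend, and averaging probe sets, kept the counts of 7, 4 and 3 members at least 2-fold apart for cavtratin against AP control, Cav1-shRNA against AP control and Cav1-shRNA against cavtratin, with *Clec4a3* nearest to the threshold in the first, at 1.07 to 1.09. The medians of the members ranged over the scalings from 1.46 to 1.47, from 0.88 to 0.94 and from −0.51 to −0.45. Without a floor the count was 8 in cavtratin, with *Clec4a1* added, beside 0.753% of all genes. A floor at the 75th percentile, 8.20, left 4, 2 and 2 members, since fewer genes reach it, beside 1.39%, 0.277% and 0.927% of the genes that do. At 3-fold the counts were 4, 2 and 1, with *Clec4e* counted in all 3 comparisons, beside 0.749%, 0.0787% and 0.227% of genes at the floor, and at 1.5-fold they were 7, 6 and 5, beside 2.19%, 0.901% and 1.53%. Centring gave *Clec4a2* differences of 0.0067, 0.058 and 0.051, which are the shifts of the array medians. Leaving out an array was not possible with 1 per group. No paired analysis was possible either, since each group had 1 array and a shared replicate number does not by itself make a pair. Below the floor, signal over background limits *Clec4a1* and *Clec4a2* in every array. Under the 3 scalings, an alternative for the lists that was added after seeing the data, no nonzero list median changed sign and none moved by more than 0.058; centring and quantile normalization each gave 6 in place of 5 monocyte and macrophage markers higher in Cav1-shRNA than in AP control, and 2 in place of 3 other adaptor-coupled receptors lower in it than in cavtratin.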

Other observations

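*Clec7a* lies in a second lectin cluster of chromosome 6, with the natural killer cell receptor genes, and that cluster was examined after the values were seen. Of 47 protein-coding genes from *Clec2h* to *Klra2* in RefSeq order, 36 had a probe set with 1 symbol and 31 of these lay below the floor in every array. The 5 that reached it were *Clec2d*, *Clec7a*, *Olr1*, *Gabarapl1* and *Klra2*. *Gabarapl1*, an autophagy gene, was at 10.48 in all 3 arrays, and *Clec2d*, a ligand of natural killer cell receptors, was at 8.73 with AP, 8.88 in the array labelled Cav1-shRNA and 9.03 with cavtratin. *Klra2*, a receptor of the Ly49 family, was at 5.10, 5.55 and 6.84, 1.75 higher in cavtratin than in AP control, as *Olr1* was by 2.17. *Clec1a*, between *Clec9a* and *Clec7a*, had equal values of 4.64, below the floor.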
